A study of Homo sapiens with 6 samples.

Results

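The proteasome genes were defined by symbol, as protein-coding rows of the count table whose name begins with PSMA, PSMB, PSMC, PSMD, PSME, PSMF or PSMG, with PSMB8 and PSMB9 left out. The rule found 48 of 61661 rows, and 46 of the 48 had enough reads to be tested. RNA-seq was carried out on K562 cells, an established line from a chronic myeloid leukaemia in blast phase. The study asked how METTL3 and METTL14 act in leukaemia lines, and there were 2 libraries of each of 3 groups, 6 in all. The shCTR cells carried a control hairpin with a nonsense sequence, the shMETTL3 cells a hairpin against METTL3, and the shMETTL14 cells, as the labels name them, one against METTL14. The labels list shCTR as wild type, and every group was grown untreated in RPMI1640 medium and collected in the logarithmic phase. Per the study's methods, the shCTR and shMETTL3 lines were stable lentiviral lines made with a vector that carries a U6 promoter, GFP and puromycin resistance, so these groups share the vector. The making of the shMETTL14 line is not described there. Nothing states that the 2 libraries of a group came from separate cultures, so the p-values below measure the spread between these libraries, which may be technical.

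The proteasome degrades proteins that carry ubiquitin chains. Its 20S core is a barrel of outer alpha rings and inner beta rings, with the cutting sites on the beta subunits PSMB5, PSMB6 and PSMB7. The 19S particle caps the barrel: its non-ATPase subunits receive and deubiquitinate the substrate, and its ring of ATPases unfolds it and threads it into the core. METTL3 and METTL14 form the methyltransferase that writes N6-methyladenosine into mRNA. NFE2L1 is a transcription factor that raises proteasome genes through antioxidant response elements when the proteasome is inhibited.

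The targeted genes were read first. METTL3 had 1788 and 1728 counts in the shCTR libraries, 1031 and 938 in shMETTL3, and 1731 and 1498 in shMETTL14. METTL14 had 656 and 655 counts in shCTR, 752 and 710 in shMETTL3, and 375 and 404 in shMETTL14. Each hairpin's own target was thus lower than shCTR, by -0.87 ± 0.08 (log2, SE; edgeR adjusted p = 3.44e-07) for METTL3 and by -0.76 ± 0.09 (adjusted p = 1.40e-05) for METTL14. Library totals ran from 19292574 to 20115304 counts, and the proteasome genes took between 0.569% and 0.590% of them. Of 11 erythroid genes chosen to check the cell line, 10 were at 1 CPM (counts scaled to a common library total) or more in every library, and HBG1 was not. The myeloid list moved with the groups: its 9 genes summed to 52.7 to 53.7 CPM in shCTR, 21.98 to 22.6 in shMETTL3 and 68.6 to 74.7 in shMETTL14, most of it LYZ, with FLT3 and HOXA9 at 0. The erythroid list summed to 1981 to 1993, 2175 to 2214 and 2047 to 2056 CPM in the same order. A list of 6 fibroblast and epithelial genes summed to 124 to 129, 106 to 112 and 138 to 144 CPM, with KRT5 and PAX2 at 0, and 5 lymphoid genes to at most 9.47 CPM. The part of these lists in the results below was not tested. In bulk RNA, fewer cells of a type and less RNA per cell cannot be told apart.

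The promoter windows of PSMG1 and PSMG2, the genes of the chaperone pair that starts the alpha ring, are shown because these genes had the lowest adjusted p-values of all the proteasome genes and because both windows hold the core letters of the antioxidant response element. Sequences are from RefSeq on GRCh38.p14, in windows of 300 bases that end 50 bases after a RefSeq start of the gene. Capitals mark TGACNNNGC. The PSMG1 window is chr21:39183402-39183701 on the minus strand and the PSMG2 window is chr18:12658488-12658787 on the plus strand.
PSMG1: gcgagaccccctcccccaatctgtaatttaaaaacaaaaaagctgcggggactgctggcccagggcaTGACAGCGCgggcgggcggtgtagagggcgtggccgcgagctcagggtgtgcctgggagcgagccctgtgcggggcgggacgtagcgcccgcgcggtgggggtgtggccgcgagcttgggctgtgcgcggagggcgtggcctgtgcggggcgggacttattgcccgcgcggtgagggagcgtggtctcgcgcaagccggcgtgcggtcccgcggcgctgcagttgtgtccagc
PSMG2: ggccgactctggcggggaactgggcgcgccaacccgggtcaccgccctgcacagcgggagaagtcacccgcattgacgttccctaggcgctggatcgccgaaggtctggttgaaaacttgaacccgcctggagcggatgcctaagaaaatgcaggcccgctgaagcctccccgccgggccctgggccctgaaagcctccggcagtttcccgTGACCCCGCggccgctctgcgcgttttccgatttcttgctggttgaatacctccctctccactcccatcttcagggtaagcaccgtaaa
The match lay at position -183 from the start in PSMG1 and at -39 in PSMG2.

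The next 6 stretches of 29 bases show the same letters in an alpha subunit (PSMA4), a beta subunit (PSMB3), both ATPases among the matches (PSMC4, PSMC5) and 2 non-ATPase subunits (PSMD3, PSMD12), so that the 3 free positions can be compared. They lie at chr15:78540650-78540678, chr17:38752627-38752655, chr19:39971182-39971210, chr17:63827654-63827682 and chr17:39980760-39980788 on the plus strand, and at chr17:67366724-67366752 on the minus strand.
PSMA4: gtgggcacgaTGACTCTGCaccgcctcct
PSMB3: gcctccgtttTGACTTTGCaaccaaacta
PSMC4: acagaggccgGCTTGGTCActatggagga
PSMC5: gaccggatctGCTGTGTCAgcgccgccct
PSMD3: tcccctttgtTGACTCGGCcatcggcctg
PSMD12: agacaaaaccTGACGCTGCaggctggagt
In PSMC4 and PSMC5 the match is on the opposite strand of the gene.

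RefSeq windows were at hand for 42 of the 48 genes, 52 windows in all. None was at hand for PSMA7, PSMB1, PSMB6, PSMB7, PSMD4 and PSMG3. TGACNNNGC, searched on both strands, was in 14 of the 52 windows (26.9%) and in 13.3% of all 35116 windows of this length. The looser TGANNNNGC, which contains it, was in 59.6% against 41.8%. CCGGAAG, a core of ETS-factor motifs, was in 34.6% against 10.3%, and GGGCGG, a GC box, in 69.2% against 45.0%. CCAAT was in 44.2% against 34.6% and its longer form CCAATC in 13 of the 52 against 15.1%. CACGTG was in 9.62% against 7.26%, and GGAAAC in 13 of the 52 against 19.7%. These shares describe letters, not bound sites. Of the 9 genes called lower in shMETTL3 below, PSMG1 and PSMG2 alone had TGACNNNGC in a window at hand, and PSMA7, PSMB1 and PSMB7 had no window. Of the 42 proteasome genes with a window, these called genes included, 14 had the letters. With so few called genes, this cannot tell whether the letters set them apart.

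Levels were compared between genes as CPM per kb of the principal transcript, averaged over the 6 libraries. In the alpha ring PSMA7 was highest, at 212 CPM per kb (range 191 to 236 over the libraries). PSMA3 stood at 96.6, PSMA5 at 66.3 and PSMA4 at 42.8, while PSMA1 stood at 21.9, PSMA6 at 2.28 and PSMA2 at 1.72. PSMA8, the testis form of PSMA7, had 0 to 2 counts in a library and was not tested. All 7 alpha subunits stand in equal number in each core, while the levels of their rows ran from 1.72 to 212.

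The 7 genes of the beta ring lay closer together, from 46.5 CPM per kb for PSMB5 to 208 for PSMB1. PSMB10, which replaces PSMB7 in the immunoproteasome, stood at 3.06, and PSMB11, the thymus subunit, had 0 counts in every library. Among the ATPases PSMC3 was highest at 102 and PSMC1 lowest at 12.7 CPM per kb. The non-ATPase subunits ran from 25.8 for PSMD12 to 137 for PSMD4, the ubiquitin receptor. Of the 19S assembly chaperones PSMD10 stood at 73.9, PSMD5 at 44.5 and PSMD9 at 1.82. PSME3, the nuclear activator, stood at 210, and PSMF1, an inhibitor, was lowest of its group at 26.9. The 20S assembly chaperones ran from 37.3 for PSMG3 to 105 for PSMG4.

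The 4 lowest tested rows and that of PSMA1 were also those whose exons another gene shares on the same strand. In GENCODE 29, the share of the principal transcript that lies in exons of another gene on the same strand was 81.0% for PSMA6, 53.2% for PSMA1, 52.5% for PSMA2, 45.3% for PSMB10 and 43.8% for PSMD9, and at most 0.0712% for any other proteasome gene. The largest such partners had at most 34 counts in any library (AC040162.1, beside PSMB10), and AC018523.2, beside PSMA1, had 0 in all. PSMC1, the lowest ATPase, shared 82.1% of its transcript with NRDE2 on the opposite strand, PSMC3IP 54.4% with MLX, and PSMD7 50.4% with a noncoding gene. The way the counter treated reads that fall on several genes and the strand setting are not given in the sources used here. The levels and changes of these 8 genes, each with at least 43.8% shared, are therefore uncertain. Smaller shares on the opposite strand leave some doubt for PSMC5 (27.2%, with FTSJ3), PSMG2 (17.3%, with CEP76) and PSMD13 (15.9%, with SIRT3). PSME2, PSMD11 and PSMD14 shared smaller parts still. PSMA6 also has a pseudogene, PSMA6P1, whose row held up to 113% of the count of PSMA6 itself. PSMC1P1 held up to 8.19% of the count of PSMC1.

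**Figure D1:**
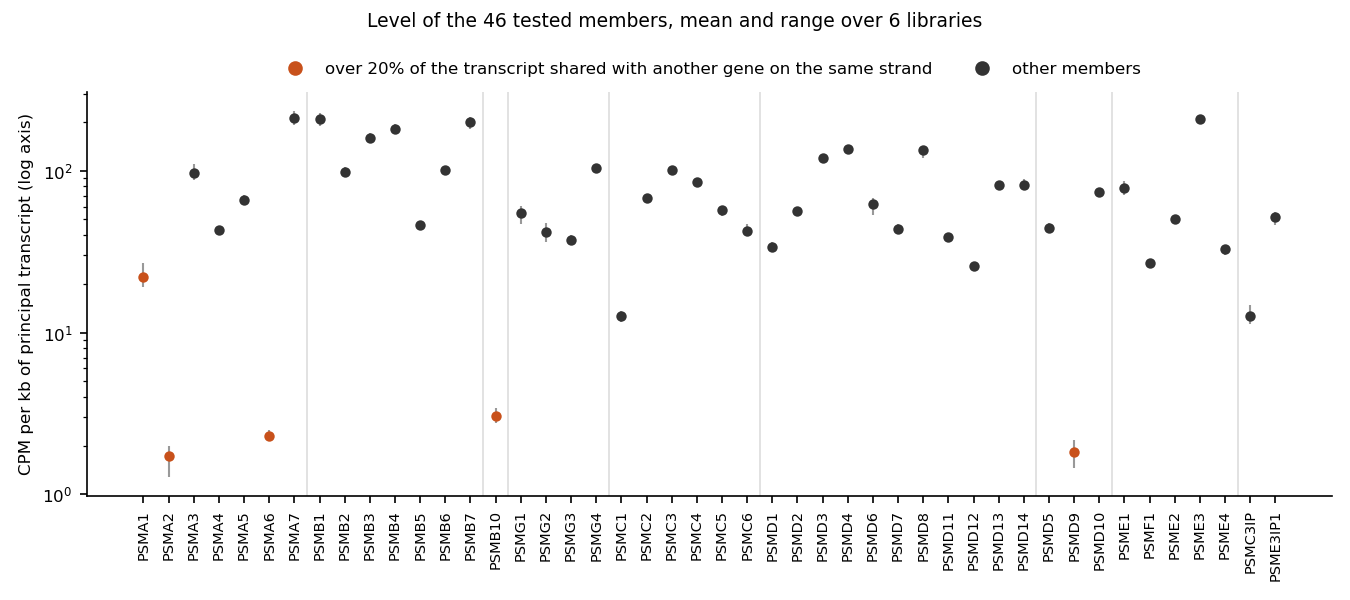
Level of each of the 46 tested proteasome genes in CPM per kb of principal transcript (log axis), as the mean of 6 libraries (point) with the lowest and highest library (line). Grey verticals part the role groups: alpha ring, beta ring, PSMB10, 20S chaperones, ATPases, non-ATPases, 19S chaperones, activators with PSMF1, and the pair of genes that are not subunits. The 5 orange points, which share over 20% of their transcript with another gene on the same strand, include the 4 lowest genes, between 1.72 and 3.06.

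In shMETTL3 against shCTR, 9 of the 46 tested genes were lower and 0 were higher (edgeR quasi-likelihood test, adjusted p under 0.05 over 17686 genes). They were 3 alpha subunits (PSMA1, PSMA3, PSMA7), 2 beta subunits (PSMB1, PSMB7), 1 subunit of the 19S particle (PSMD6), both members of the first 20S chaperone pair (PSMG1, PSMG2) and PSME3IP1, a partner of the activator PSME3 that is no subunit. Their fitted levels were 0.793 to 0.870 times those of shCTR. Over all genes, 7.73% were called lower and 8.73% higher, so the share of proteasome genes called lower, 19.6%, was above this background and the share called higher below it. Proteasome genes have many reads, however. Among the 4840 genes with a mean of at least 1000 counts, 17.1% were called lower and 6.80% higher, and of the 40 proteasome genes in that class 8 were lower, which is near that background, and 0 higher.

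PSMG2 had 78.3 and 80.5 CPM in shCTR, 61.5 and 65.3 in shMETTL3, and 66.7 and 69.8 in shMETTL14. It was the most clearly lower of the set, at -0.32 ± 0.07 (log2 fold change, SE; adjusted p = 0.00243), and lies at chr18:12658043-12725740, where it overlaps CEP76 as given above. Its partner PSMG1 (chr21:39174769-39183851) had 131 and 129 CPM in shCTR, 100.3 and 111 in shMETTL3, and 118 and 120.4 in shMETTL14. The fold change of PSMG1 was -0.30 ± 0.07 (adjusted p = 0.00433), and for both genes the 2 shMETTL3 libraries lay below all 4 others. The second chaperone pair did not pass the test: PSMG3 was at 0.06 ± 0.07 and PSMG4 at -0.01 ± 0.07. PSMG3 had 53.0 and 49.5 CPM in shCTR, 51.6 and 55.4 in shMETTL3, and 51.9 and 49.9 in shMETTL14. PSMG4 had 88.1 and 90.4, 85.5 and 91.3, and 82.7 and 88.5 CPM in the same order, so that in both genes shMETTL3 overlapped shCTR.

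In the alpha ring, PSMA3 (chr14:58244831-58272012) had 107 and 100.5 CPM in shCTR, 86.1 and 85.6 in shMETTL3, and 91.7 and 91.4 in shMETTL14. Its fold change was -0.27 ± 0.06 (log2, SE; adjusted p = 0.00644). PSMA7 (chr20:62136735-62143440) had 210.4 and 235 CPM in shCTR, 190.1 and 196 in shMETTL3, and 218 and 214 in shMETTL14. It was at -0.21 ± 0.06 (adjusted p = 0.0320), with shMETTL14 inside the range of shCTR. PSMA1 (chr11:14504874-14643635), whose row is among the uncertain ones, had 40.3 and 34.7 CPM in shCTR, 28.9 and 30.6 in shMETTL3, and 33.4 and 30.3 in shMETTL14, a change of -0.33 ± 0.09 in shMETTL3 (adjusted p = 0.0148). PSMA4 was at -0.14 ± 0.06 (adjusted p = 0.123) and PSMA5 at -0.14 ± 0.06 (adjusted p = 0.0971), both with shMETTL3 below shCTR in every library but short of the threshold. PSMA2 had 2.93 and 2.61 CPM in shCTR, 2.65 and 1.89 in shMETTL3, and 2.65 and 2.65 in shMETTL14, too few reads for its -0.29 ± 0.24 to be told from 0. PSMA6, also with few reads, was at -0.11 ± 0.24. All 7 tested alpha genes had a fold change below 0, as did 49.5% of all genes and 63.0% of those with at least 1000 counts.

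The beta ring held PSMB7 and PSMB1 among the called genes. PSMB7 (chr9:124353466-124415444), which carries the trypsin-like site, had 209 and 211 CPM in shCTR, 177 and 187 in shMETTL3, and 195 and 194 in shMETTL14. It was at -0.21 ± 0.06 (adjusted p = 0.0212). PSMB1 (chr6:170535117-170553341), a structural subunit, had 198 and 210.4 CPM in shCTR, 180.0 and 175 in shMETTL3, and 197 and 199.5 in shMETTL14, a change of -0.20 ± 0.06 (adjusted p = 0.0272). The other two cutting subunits did not pass. PSMB6, with the caspase-like site, was at -0.11 ± 0.06 (adjusted p = 0.250). PSMB5, with the chymotrypsin-like site, was the only ring gene above 0, at 0.08 ± 0.07 (adjusted p = 0.478), and had 56.7 and 60.8 CPM in shCTR, 63.6 and 60.7 in shMETTL3, and 61.7 and 57.4 in shMETTL14. PSMB2 missed the threshold at -0.16 ± 0.06 (adjusted p = 0.0616). PSMB10 had 3.85 and 3.92 CPM in shCTR, 3.36 and 3.69 in shMETTL3, and 4.17 and 3.37 in shMETTL14, a change of -0.14 ± 0.20.

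The 19S particle gave 1 called gene of 17. PSMD6 (chr3:64010549-64024010), a subunit of the lid, had 96.6 and 95.6 CPM in shCTR, 83.3 and 76.2 in shMETTL3, and 93.9 and 88.2 in shMETTL14. It was at -0.27 ± 0.07 (adjusted p = 0.00997), lower in shMETTL3 than in any other library. None of the 6 ATPases was called, and their fold changes ran from -0.16 for PSMC6 to 0.08 for PSMC5. PSMC3 had 158 and 170.2 CPM in shCTR, 165 and 156 in shMETTL3, and 164 and 151 in shMETTL14. PSMC1 had 60.6 and 58.3, 57.2 and 52.3, and 58.5 and 51.6 CPM in the same order. In PSMC3 shMETTL3 overlapped shCTR, and in PSMC1 it lay below shCTR by less than the spread within shMETTL3.

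The remaining 10 non-ATPase genes ran from -0.10 to 0.05. PSMD4 had 191 and 191 CPM in shCTR, 179 and 178 in shMETTL3, and 191 and 176 in shMETTL14. PSMD12 had 116 and 113, 112 and 116, and 115 and 109.5 CPM. Of the 19S chaperones PSMD5 came nearest to the threshold, at -0.18 ± 0.06 (adjusted p = 0.0510). PSMD10 had 118 and 117 CPM in shCTR, 109 and 107 in shMETTL3, and 119.7 and 115 in shMETTL14. PSMD9 had 5.11 and 6.01, 4.02 and 4.49, and 5.75 and 5.05 CPM, with a change of -0.38 ± 0.18 (adjusted p = 0.165). All 3 of these chaperones had both shMETTL3 libraries below both shCTR libraries without passing the test, an order found in 27.3% of all genes and 42.4% of those with at least 1000 counts.

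None of the 5 activators and inhibitors passed, with fold changes from -0.13 for PSME2 to 0.06 for PSME3. PSME3 had 199.8 and 211 CPM in shCTR, 210.0 and 218 in shMETTL3, and 213 and 207 in shMETTL14. PSMF1 had 116 and 117, 108 and 114, and 121 and 117 CPM. The pair of genes that meet the letters of the rule without being subunits went opposite ways. PSME3IP1 (chr16:57152466-57186116) had 156 and 159 CPM in shCTR, 135 and 132 in shMETTL3, and 149 and 154 in shMETTL14, a change of -0.24 ± 0.06 (adjusted p = 0.010). PSMC3IP, a factor of meiotic recombination whose row is among the uncertain ones, had 15.9 and 17.8, 19.2 and 21.1, and 17.2 and 16.4 CPM, at 0.26 ± 0.10 (adjusted p = 0.0992). Without these 2 genes, 8 of 44 were called lower.

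**Figure D2:**
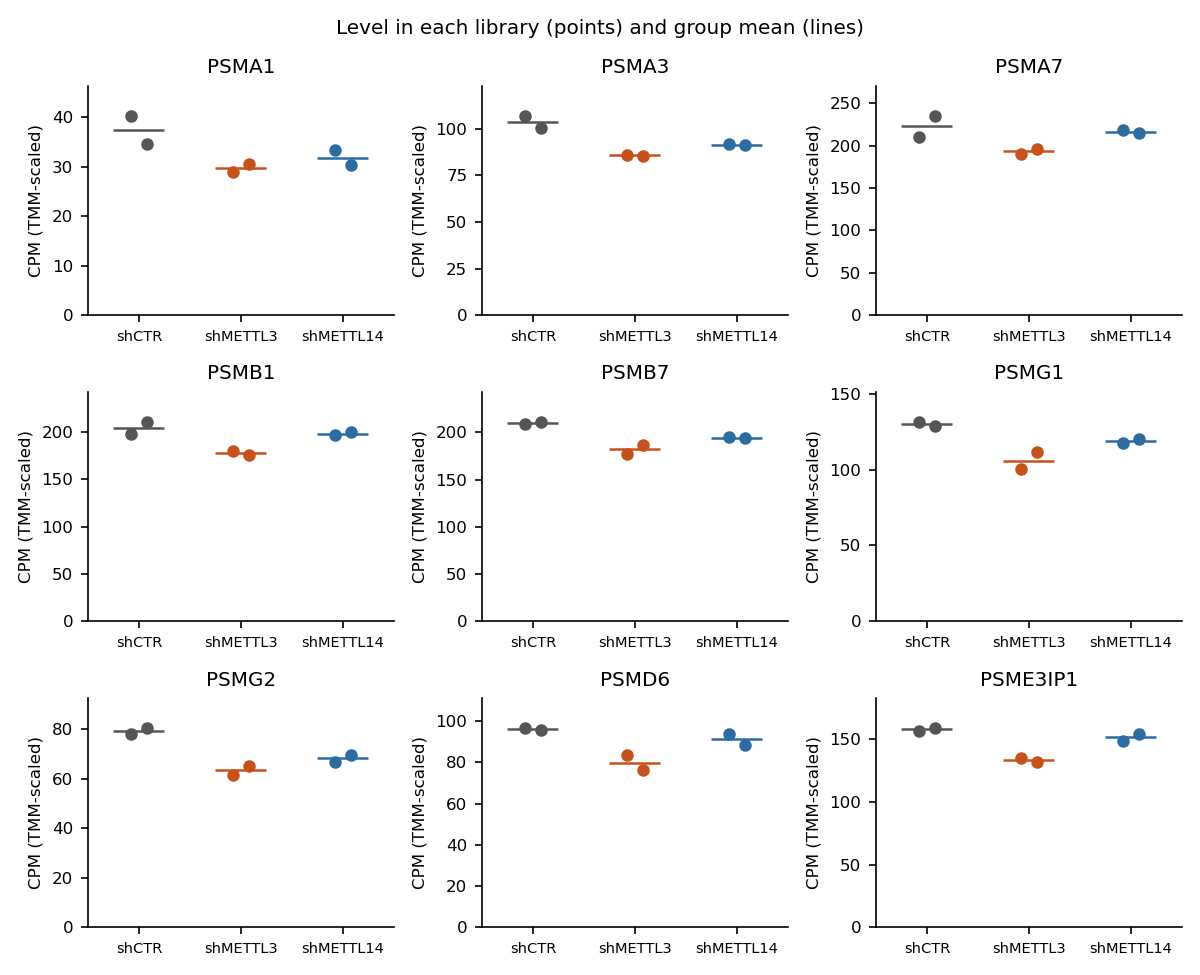
TMM-scaled CPM of the 9 called genes in each library (points) with the group mean (line), for shCTR, shMETTL3 and shMETTL14; each axis starts at 0. In all 9 panels both shMETTL3 points lie below both shCTR points, and in PSMA7 and PSMB1 the shMETTL14 points lie within or overlap the range of shCTR.

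Across the 46 tested genes the median fold change in shMETTL3 was -0.11 (log2), against 0.003 over all genes tested and -0.06 over genes with at least 1000 counts. The median was -0.15 over the 14 tested genes of the 20S rings and -0.04 over the 17 genes of the 19S particle. The 19S median was -0.08 without shMETTL3 replicate 1, -0.02 without replicate 2 and 0.01 with scaling by library size alone, and the ring median lay between -0.18 and -0.10 and below the 19S median under all 14 other settings. In 30 of the 46 genes both shMETTL3 libraries lay below both shCTR libraries, against 27.3% of all genes. In the class with at least 1000 counts this held for 26 of 40 proteasome genes, or 65%, against 42.4% of that class. Summed over the rings, the 20S genes gave 1961 and 2017 CPM in shCTR, 1776 and 1779 in shMETTL3, and 1873 and 1844 in shMETTL14. The 19S genes summed to 2454 and 2497, 2440 and 2367, and 2477 and 2349 CPM. The 20S sum was therefore 0.799 and 0.808 times the 19S sum in shCTR, 0.728 and 0.752 times in shMETTL3, and 0.756 and 0.785 times in shMETTL14. Both knockdowns lay below shCTR. The nearest shMETTL3 and shMETTL14 values, 0.752 and 0.756, differed by less than the libraries within either group. The scaling sets changes relative to the bulk of genes in the library, so an equal change of all mRNA would not be seen.

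The calls in shMETTL3 rest on both of its libraries. Without shMETTL3 replicate 1 the count of called genes went from 9 to 1 (PSMD6), and without replicate 2 to 2 (PSMG1 and PSMG2), while the calls over all genes went from 2912 to 1503 and 1102. The fit then holds a lone library that is assumed to vary like the others. PSMA7 and PSMB1 lost their call in 8 of 14 other settings each, PSMA1 in 4, PSMA3 and PSMB7 in 3, PSME3IP1 in 2, and PSMG1, PSMG2 and PSMD6 in 1. Scaling by library size alone gave 1 gene higher (PSMC3IP) and 6 lower, and over all genes 2158 higher and 858 lower in place of 1544 and 1368.

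The proteasome transcripts were shorter than most, with a median of 1579.5 nt for the 46 genes against 2503 nt over all tested genes with a transcript, and a median GC content of 49.2% against 48.8%. With the trend of fold change on GC content and length removed, the median in shMETTL3 was -0.08 in place of -0.11, with 9 genes called, 8 lower and 1 higher, and PSMA3 and PSMB1 not among them. GGACT, a frequent core of the methylated motif, occurred at a median of 0.999 per kb in the proteasome transcripts, 0.916 over all, and 0.699 in the 9 called genes. It was absent from 3 of these 9, from 5 of the 46 and from 2689 of 16662 tested genes with a transcript. The 9 called transcripts had a median length of 1430 nt. No methylation was measured in these libraries.

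**Figure D3:**
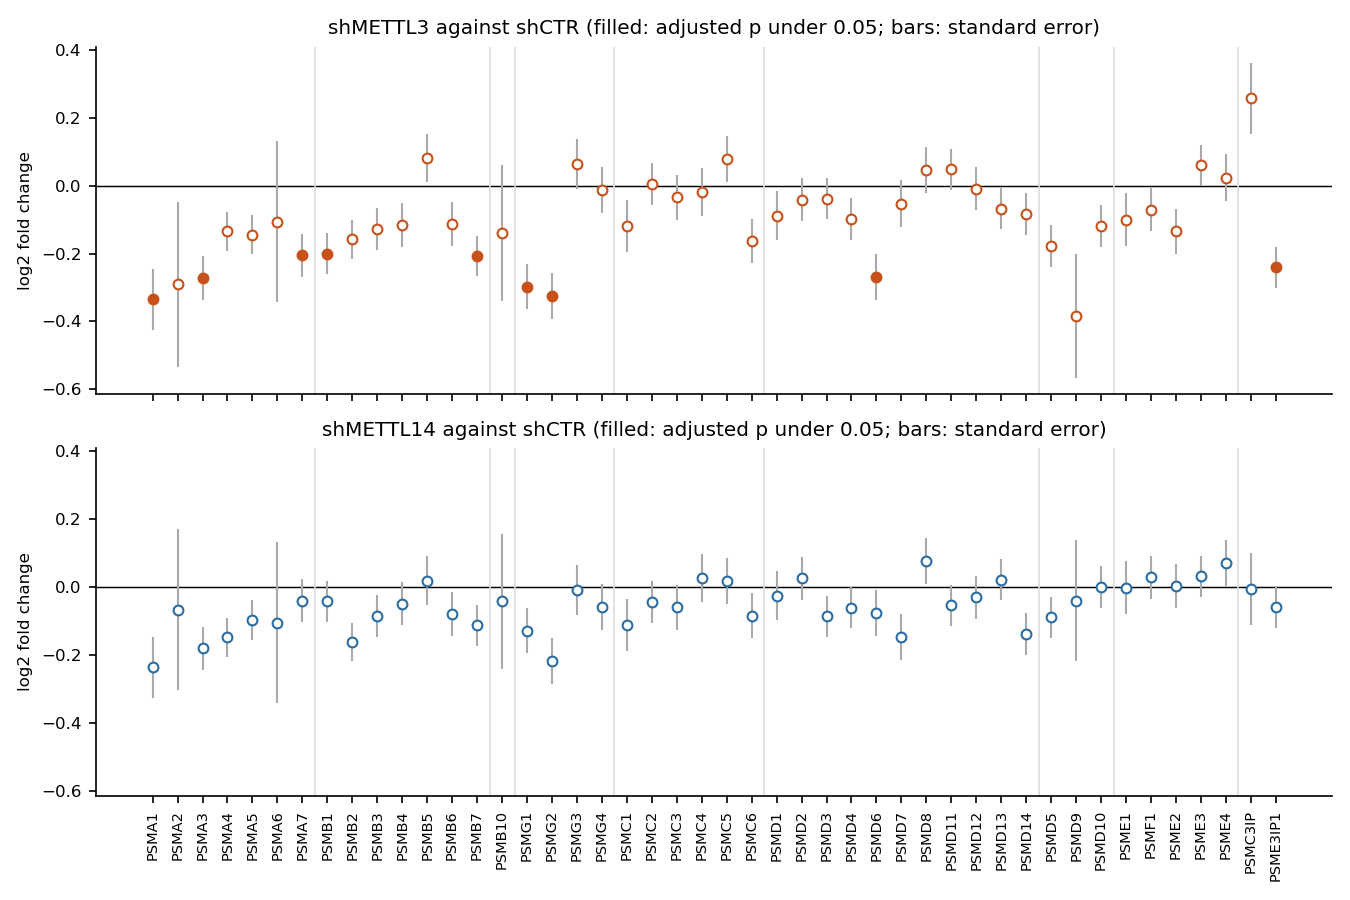
Fitted log2 fold change of each tested proteasome gene against shCTR, with its standard error (bars), for shMETTL3 (top) and shMETTL14 (bottom); filled points have an adjusted p under 0.05. The 9 filled points are all below 0 in the top panel, and there are 0 in the bottom panel; the widest bars belong to PSMA2, PSMA6, PSMB10 and PSMD9, which have few reads.

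In shMETTL14 against shCTR, 0 of the 46 genes passed the edgeR test and 0 passed DESeq2, where 6.69% of all genes passed edgeR. At an unadjusted p under 0.05, 7 of the 46 were lower and 0 higher in edgeR, against 9.97% lower and 10.7% higher of all genes and 17.0% lower in the class with at least 1000 counts, so the share lower was not above that class. PSMG2 came nearest, at -0.22 ± 0.07 (log2, SE; adjusted p = 0.0569), followed by PSMB2 at -0.16 ± 0.06 (adjusted p = 0.0967). The 9 genes called in shMETTL3 lay between -0.24 (PSMA1) and -0.04 (PSMA7, PSMB1) in shMETTL14, and both comparisons use the same shCTR libraries. In PSMG2, PSMG1, PSMA3, PSMA1, PSMB7, PSMD6 and PSME3IP1 both shMETTL14 libraries lay below both shCTR libraries. Over all 46 genes this held for 18, against 23.9% of all genes, and in the class with at least 1000 counts for 17 of 40, against 32.3%. The median was -0.06 (log2) over the 46 genes, -0.09 over the ring genes and -0.05 over the 19S genes, beside -0.02 for all genes with at least 1000 counts. The 19S median was -0.003 without shMETTL14 replicate 2, -0.08 without replicate 1, -0.03 with scaling by library size alone and -0.01 with the GC and length trend removed, while the ring median lay between -0.12 and -0.07. Without shCTR replicate 2, 3 genes were called lower (PSMA1, PSMA3 and PSMD14).

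Set directly against shMETTL14, shMETTL3 gave 0 called genes of 46 in edgeR and 0 in DESeq2, where 12.1% of all genes were called by edgeR. At an unadjusted p under 0.05, 1 was higher and 6 lower, against 13.1% and 11.9% of all genes and 19.4% lower in the class with at least 1000 counts. Both shMETTL3 libraries lay below both shMETTL14 libraries in 17 of the 46 genes, against 28.3% of all genes, and in 16 of 40 in that class, against 40.3%. The lowest adjusted p-values were those of PSME3IP1 at -0.18 ± 0.06 (log2, SE; adjusted p = 0.0571) and PSMD6 at -0.19 ± 0.07 (adjusted p = 0.0746), followed by PSMB1 at -0.16 ± 0.06 (adjusted p = 0.1005) and PSMA7 at -0.16 ± 0.06 (adjusted p = 0.105). These 4 genes were called lower when the fit held these groups only, and without either shCTR library. With the GC and length trend removed PSMC3IP was called higher. None of the 14 other settings called a difference in the remaining 41 tested proteasome genes, which does not show that the knockdowns act alike. The ring sums of shMETTL3 lay below those of shMETTL14 in every library, while their 19S sums overlapped. The median fold change was -0.06 (log2) over the ring genes and -0.01 over the 19S genes. This gap was not stable: the medians were -0.01 and -0.02 with the trend removed, -0.08 and -0.06 without shMETTL14 replicate 2, and -0.03 and 0.06 without shMETTL14 replicate 1.

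**Figure D4:**
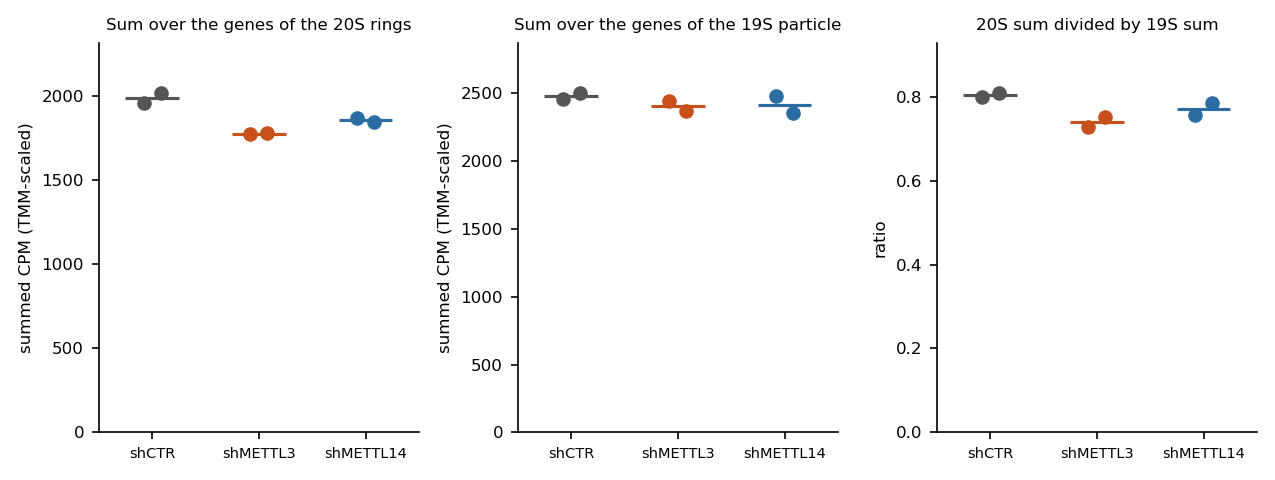
Summed TMM-scaled CPM of the 15 genes of the 20S rings (left) and the 17 genes of the 19S particle (middle), and the first sum divided by the second (right), per library (points) with the group mean (line); each axis starts at 0. The 20S sum is 1961 and 2017 in shCTR and 1776 and 1779 in shMETTL3. The 19S sum is 2454 and 2497 in shCTR and 2440 and 2367 in shMETTL3, also lower without overlap but by less. The 19S sums overlap between shMETTL3 and shMETTL14.

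Genes that work with the proteasome were read from 4 lists. Among 15 partners of the particle, shMETTL3 had 1 higher and 2 lower than shCTR, against 8.73% higher and 7.73% lower of all genes and 17.1% lower of those with at least 1000 counts, so these counts were near the background. IPO9, an importin, had 96.6 and 97.4 CPM in shCTR and 114 and 111 in shMETTL3 (0.22 ± 0.06, log2; adjusted p = 0.0223). TXNL1, a thioredoxin-like protein bound to the 19S particle, had 68.9 and 66.2 CPM against 53.7 and 57.0 (-0.29 ± 0.07; adjusted p = 0.00741). USP14, a deubiquitinase of the 19S particle, was also lower, at -0.20 ± 0.06. In shMETTL14 0 of the 15 passed edgeR, where 6.69% of all genes passed. At an unadjusted p under 0.05, 1 was higher and 2 lower, against 10.7% and 9.97% of all genes. IPO9 stood at 0.20 ± 0.06 (adjusted p = 0.0548).

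Of 20 regulators of proteasome genes, 2 were higher and 1 lower in shMETTL3, near the 8.73% and 7.73% of all genes. NFE2L1 had 187 and 184 CPM in shCTR, 225 and 227 in shMETTL3, and 189.9 and 181 in shMETTL14. It was higher in shMETTL3 than in shCTR by 0.29 ± 0.06 (log2; adjusted p = 0.00239) and higher than in shMETTL14 by 0.29 ± 0.06 (adjusted p = 0.00265), and stood at 0.00025 in shMETTL14 against shCTR. NFE2L2, the related factor of the oxidative stress response, did not pass in any comparison and stood at -0.002 ± 0.07 in shMETTL3. KEAP1, the adaptor that holds NFE2L2 low, was higher by 0.26 ± 0.07 in shMETTL3 (adjusted p = 0.0144), and NGLY1, the glycanase that processes NFE2L1, was at -0.23 ± 0.07 (adjusted p = 0.0258). MAFG, a small Maf partner of these factors, was lower in shMETTL14 (-0.20 ± 0.06; adjusted p = 0.0497).

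In the ubiquitin list, 2 of 6 genes were lower in shMETTL3, against 7.73% of all genes and 17.1% of those with at least 1000 counts. RPS27A, which encodes ubiquitin fused to a ribosomal protein, had 1020.0 and 1031 CPM in shCTR, 860.5 and 852 in shMETTL3, and 858 and 929 in shMETTL14. It was lower in both knockdowns, at -0.26 ± 0.05 (log2; adjusted p = 0.00268) and -0.20 ± 0.05 (adjusted p = 0.0332). UBA6, a ubiquitin-activating enzyme, was lower in shMETTL3 at -0.27 ± 0.07 (adjusted p = 0.0119). Of 15 shuttles and cofactors of the unfoldase VCP, 14 were tested, and 1 was lower in each knockdown, near the 7.73% and 3.26% of all genes. UBXN1 was lower in shMETTL3 (-0.25 ± 0.06; adjusted p = 0.0113), and UFD1 was lower in shMETTL14 (-0.20 ± 0.06; adjusted p = 0.0482). In shMETTL3 the list medians were -0.07 for partners, 0.03 for regulators, -0.07 for the ubiquitin list and -0.05 for shuttles. Apart from NFE2L1 and NFE2L2, the list genes were picked by their values, as up to 3 genes per list with the lowest adjusted p. USP14, KEAP1 and NGLY1 fell outside that choice and were added after their values were seen. Of the 9 calls named here in shMETTL3, that of NFE2L1 held under all 14 other settings (adjusted p up to 0.0451) and every other was lost without at least 1 library. TXNL1 was lost without shMETTL3 replicate 1, RPS27A without replicate 2, IPO9, USP14, NGLY1 and UBXN1 without either, KEAP1 and UBA6 without shMETTL3 replicate 2 or shCTR replicate 1, USP14 and NGLY1 also without shCTR replicate 1, and UBXN1 without shCTR replicate 2. Without a shMETTL14 library, IPO9 (replicate 1) and USP14 (either) were lost as well. Over all 14 other settings, the shMETTL3 call of USP14 was lost in 8, that of NGLY1 in 6, those of KEAP1, IPO9 and UBXN1 in 3, that of UBA6 in 2 and those of TXNL1 and RPS27A in 1. The calls of MAFG and UFD1 in shMETTL14 were lost in 8 of 14 each, and that of RPS27A in 5.

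**Figure D5:**
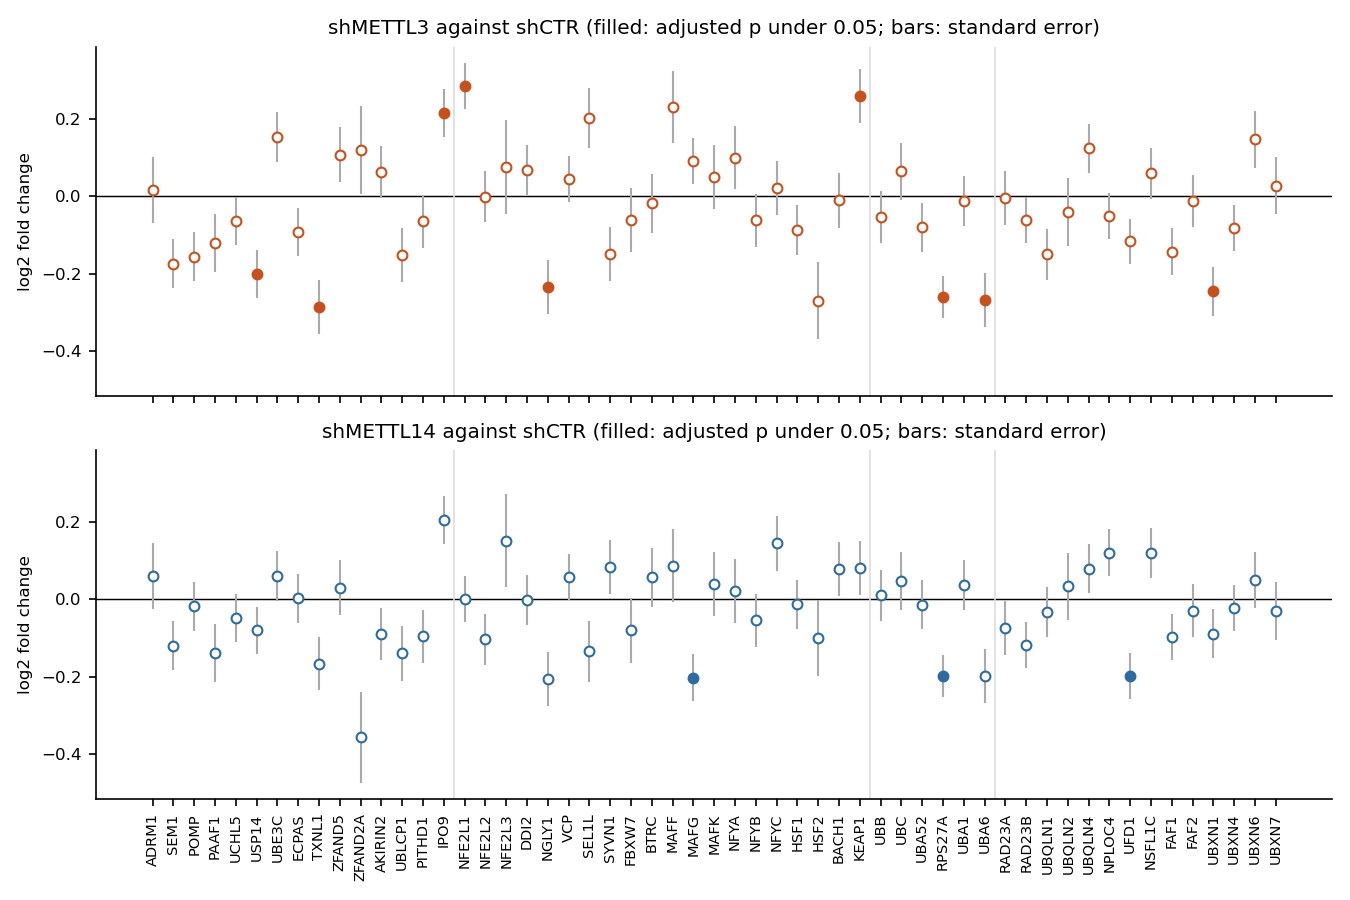
Fitted log2 fold change against shCTR with its standard error (bars) for the 55 tested genes of the 4 lists, left to right partners, regulators, ubiquitin genes and shuttles, in shMETTL3 (top) and shMETTL14 (bottom); filled points have an adjusted p under 0.05. NFE2L1 is at 0.29 in the top panel and near 0 in the bottom one, and RPS27A is filled in both.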

How the data were processed

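K562 cells with shCTR, shMETTL3 or shMETTL14 were profiled by poly(A) RNA-seq, 2 libraries each. The authors deposited raw read counts per gene, made with HTSeq 0.6.1 on hg38 per the submitters' processing notes. The aligner, the annotation, the strand setting and the overlap mode are not given in the sources used here. Groups and replicate numbers came from the labels. Rows were named from a table of gene IDs (41209) and GENCODE 29 (15846 more). Rows without an annotated gene, which held 0.635% to 0.703% of the reads, stayed in the table. Genes were kept with edgeR 4.0.16 filterByExpr (minimum count 10), scaled by TMM, and tested in 1 quasi-likelihood fit of all 6 libraries, with Benjamini-Hochberg adjustment over 17686 genes and a threshold of 0.05. Script steps were tested on simulated data. CPM per kb used the principal transcript of GENCODE 29.

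Every proteasome gene is accounted for by role. Values in every library are given for genes called in any comparison and for the highest and lowest of each role group per kb. Of each list, NFE2L1, NFE2L2 and up to 3 genes with the lowest adjusted p are named. The genes and lists were chosen with earlier results of these data known. The alternatives were DESeq2 1.42.0 and its size factors, library size alone, no filter, the compared groups only, a replicate block, removal of a GC and length trend (mgcv 1.9.3), addition of pseudogene rows, a threshold of 0.01, and leaving out each library. R 4.3.3 was used. Errors of fold changes are standard errors, and totals of 19292574 to 20115304 counts limit mainly the low rows.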

Additional observations from a re-analysis of the deposited data

Results flagged for a closer look

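The proteasome gene PSMD11, a lid subunit, had both shMETTL3 libraries above and both shMETTL14 libraries below the shCTR libraries. The direct difference was 0.10 (log2, shMETTL3 minus shMETTL14; edgeR adjusted p = 0.318), which did not pass the test. Among the 15 partner and 20 regulator genes, 5 differed between the knockdowns in the direct test. Of all genes 12.1% were called in that test, so this count was near the background. ZFAND2A, an arsenite-inducible protein that binds the proteasome, differed by 0.48 (adjusted p = 0.00918), with 14.6 and 14.4 CPM in shMETTL3 and 10.0 and 10.8 in shMETTL14. NFE2L1 differed by 0.29 (adjusted p = 0.00265) and MAFG by 0.30 (adjusted p = 0.00248). The ligase SYVN1 differed by -0.23 (adjusted p = 0.0345) and its adaptor SEL1L by 0.34 (adjusted p = 0.00612), in opposite directions. SYVN1 fell outside the choice by lowest adjusted p and was added after its values were seen. Without shMETTL14 replicate 2 all 5 of these differences lost the call, as did those of ZFAND2A, SEL1L and SYVN1 without shMETTL14 replicate 1, ZFAND2A and SEL1L without shMETTL3 replicate 1, and ZFAND2A and SYVN1 without shMETTL3 replicate 2. With DESeq2 those of ZFAND2A and SYVN1 did not pass. Over all 14 other settings, the call of SYVN1 was lost in 6, that of ZFAND2A in 5, that of SEL1L in 3 and those of NFE2L1 and MAFG in 1.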

How the results depend on the processing

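Of 644 values of single genes under the alternatives, 530 kept their side of the threshold, 19 crossed it to become called and 95 lost the call. No called value changed sign, while 2 uncalled ones did without shCTR replicate 2 (shMETTL14 against shCTR, PSMA7 at 0.04 and PSMB1 at 0.001). In shMETTL3 against shCTR, the count of called proteasome genes was 9, and 5 at a threshold of 0.01. Leaving out each library gave 1 to 10 called genes and medians of -0.115 to -0.0979. Library size alone moved the median from -0.110 to -0.0544 and removal of the GC and length trend moved it to -0.0783. In shMETTL14 against shCTR, the count of 0 became 2 with the trend removed (PSMG2, PSMB2). Leaving out each library gave 0 to 3 called genes and medians of -0.0697 to -0.0305 (without shMETTL14 replicate 2). Library size alone gave a median of -0.0303. In shMETTL3 against shMETTL14, the count of 0 became 4 with the compared groups only and 2 with the trend removed, 1 higher and 1 lower. Leaving out each library gave 0 to 4 called genes and medians of -0.0688 to -0.00394 (without shMETTL14 replicate 1). Library size alone gave -0.0171 and the removed trend -0.0236. The cause of these moves was not tested. Over all genes, DESeq2 called 1752 in shMETTL3 against 2912 in edgeR, 713 against 1184 in shMETTL14, and 1243 against 2148 between the knockdowns.

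With a replicate block the counts were 11, 1 (PSMG2) and 2 (PSMD6, PSME3IP1) in the same order of comparisons. Over all genes the block gave 3264, 1459 and 2478 calls, against 2912, 1184 and 2148 without it. Libraries with the same number correlated at r of 0.061, 0.005 and -0.020 in their deviations. No pairing by number was seen in this, but a pairing in part of the genes could be missed by it. The libraries of a group differed beyond counting error (chi-square per gene 2.55 to 5.30 on average). PSMA2, PSMA6, PSMB10 and PSMD9 had few reads, and their standard errors were 0.18 to 0.24. These rows are also among those that share exons with another gene on the same strand, and the part of this in their low counts was not tested.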
